A study of Mus musculus with 4 samples.

Results

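Immediate early and heat shock genes were examined in terminal end buds, the bulbous tips of growing mammary ducts, from mice with and without Ovol2, a zinc finger repressor of mesenchymal genes. The 43 genes were taken from a list of known names: 34 immediate early genes and 9 heat shock genes, of 19938 genes on the array. For each gene, values came from the brightest probe set, by mean signal over the 4 arrays, of those annotated to it alone. Such a probe set existed for 42 of the 43 genes. Hspa1b shared its only probe set with Hspa1a and had no value of its own. Of the 42, 41 lay above the filter on dim signals and were tested (33 immediate early and 8 heat shock genes). Dusp2 did not reach it.

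End buds were dissected from female mice of strain C57/BL6, labelled 4.5 weeks old, whereas the series text gives 24 to 25 days. Control mice are labelled Ovol2flox/+, and the protocol adds that some may carry K14-Cre. Knockout mice were Ovol2flox/-;K14-Cre. The keratin 14 promoter drives Cre in basal epithelium and skin, and the minus allele of the knockout mice is not limited to those cells. Littermates shared cages. Each group had 2 arrays, labelled biological replicates, with RNA of 2 mice pooled for each control array and of 3 for each knockout array, so pool size and genotype cannot be told apart. P-values measure the spread between these pools. The Ovol2 signal was lower in both knockout pools, with a log2 difference of -0.39 ± 0.16 that missed significance (limma, adjusted p = 0.17). Its log2 signal was dim, 8.05 and 8.31 in the control pools and 7.85 and 7.73 in the knockout pools. The filter on dim signals lay at 7.97, so this check of genotype is weak. All 8 epithelial markers looked for, among them Krt8, Epcam and Cdh1, were above the filter, and Krt14 had a log2 difference of 0.43 ± 0.15 (adjusted p = 0.0995). The array medians lay between 252 and 272 signal units.

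Immediate early genes are switched on within minutes of a growth factor, stretch or stress signal, without new protein synthesis. Many encode transcription factors, such as the Fos and Jun subunits of AP-1, and others encode feedback proteins that end the signal. Heat shock genes encode chaperones that fold proteins, and their induction is driven by heat shock factors that bind repeats of a short element in their promoters. Both families are also known to respond to the handling of tissue, and the time from dissection to lysis is not given in the sources used here.

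Promoter sequences from RefSeq (GRCm38.p6) are shown so that the motifs searched in the genes called higher and lower can be seen. Windows from 250 bases before to 50 bases after each start were found for 35 of the 43 genes. A gene with several starts was counted once, when any of its windows held a match. Searched on both strands, the cAMP response element TGACGTCA occurred in 4 of the 35 genes (Btg2, Dusp1, Maff and Ppp1r15a), or 11.4%, against 2.03% of the 27025 genes of the table. Its core TGACG, which overlaps the full element, occurred in 20 of 35 (57.1%), against 23.0% of all genes. Among the genes higher in the knockout it was in 9 of 12, among those lower in 2 of 3 (Hspd1 and Hspe1), and among the immediate early genes that were not called in 7 of 17. The heat shock genes held it in 4 of 7, the same share as the immediate early genes (16 of 28, 57.1% each). The matches of Hspd1 and Hspe1 are the same bases, counted once for each gene, and are not independent. The heat shock element GAANNTTCNNGAA occurred in 3 of the 7 heat shock genes with a window, against 0.662% of all genes. Those were Hspd1, Hspe1 and Hsph1. The serum response element core, known as the CArG box, occurred in Dusp5, Egr2 and Zfp36 (8.57%, against 1.81%), and the AP-1 site TGACTCA in 0 of 35 (5.95% of all genes). A TATA box, TATAAA on the sense strand, was in 14.3% of the 35 and 9.77% of all genes. Each match describes letters in a window and was not tested as a bound site. Bases outside the windows were not searched, so a gene without a match may hold the motif further away. The lines below give the 250 bases before the start of 3 immediate early genes that rose. Capitals mark TGACG, TGACGTCA or CGTCA, which is TGACG on the other strand.
Fos (chr12:85473640-85473889, plus strand): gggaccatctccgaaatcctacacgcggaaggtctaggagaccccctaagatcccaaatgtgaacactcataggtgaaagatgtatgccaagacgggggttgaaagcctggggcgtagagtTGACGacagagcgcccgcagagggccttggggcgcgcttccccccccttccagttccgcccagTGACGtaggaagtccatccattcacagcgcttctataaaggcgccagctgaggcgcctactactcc
Nr4a3 (chr4:48045055-48045304, plus strand): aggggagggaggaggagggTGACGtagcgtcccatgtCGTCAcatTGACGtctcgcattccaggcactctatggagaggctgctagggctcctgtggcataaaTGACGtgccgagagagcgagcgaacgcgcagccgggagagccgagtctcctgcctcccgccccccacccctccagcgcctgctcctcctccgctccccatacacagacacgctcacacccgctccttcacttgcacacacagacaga
Dusp1 (chr17:26508473-26508722, minus strand): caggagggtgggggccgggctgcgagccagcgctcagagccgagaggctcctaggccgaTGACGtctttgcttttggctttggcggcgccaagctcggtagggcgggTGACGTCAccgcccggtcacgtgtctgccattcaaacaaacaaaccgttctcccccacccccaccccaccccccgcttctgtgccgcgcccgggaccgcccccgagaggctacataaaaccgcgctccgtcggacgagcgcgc
The next lines give the heat shock genes. Hspa1a, the member that rose, is shown without capitals because the heat shock element as spelled above was not in its window. Looser spellings of the element were not searched, so its absence from that promoter is not shown. For Hspe1, bases -95 to -66 before the start are shown, and for Hsph1 bases 12 to 32 after one of its annotated starts, with heat shock elements in capitals. In Hspe1 the capitals hold 2 overlapping matches, and the Hsph1 site is 1 site that lies within the windows of 2 annotated starts.
Hspa1a (chr17:34972157-34972406, minus strand): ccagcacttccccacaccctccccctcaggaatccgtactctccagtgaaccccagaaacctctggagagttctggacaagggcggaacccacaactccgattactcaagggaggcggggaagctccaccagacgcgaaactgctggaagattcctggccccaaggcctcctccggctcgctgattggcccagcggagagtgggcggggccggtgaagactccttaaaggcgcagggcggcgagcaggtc
Hspe1 (chr1:55088053-55088082, plus strand): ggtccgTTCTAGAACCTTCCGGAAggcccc
Hsph1 (chr5:149636284-149636304, minus strand): cagaTTCTGGAAAGTTCtcct

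**Figure D1:**
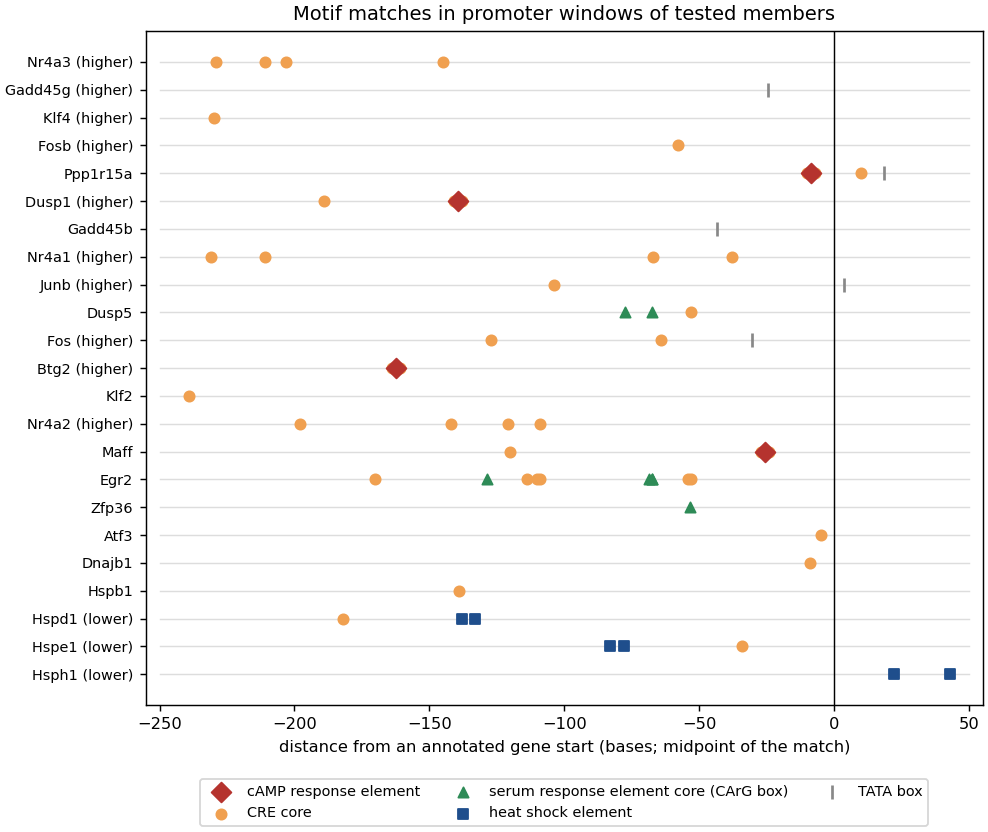
Motif matches in the promoter windows of the tested genes that held any, ordered by log2 difference between knockout and control. The x axis is the distance in bases from an annotated start, with several starts of a gene on 1 line, and each symbol is the midpoint of a match. The heat shock elements lie in Hspd1, Hspe1 and Hsph1, at the foot of the plot. TGACG cores are circles named CRE core, or are hidden under the diamonds of the full element. They lie in 9 of the 12 genes called higher that have a window, and in 2 of the 3 called lower. Those 2 are Hspd1 and Hspe1, whose matches are the same bases.

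Of 33 tested immediate early genes, 13 rose in the knockout, 0 fell and 20 were not called (limma, adjusted p under 0.05 over 11963 genes). At an unadjusted p under 0.05, 1 immediate early gene was lower, Egr3. Of 8 heat shock genes 1 rose, 3 fell and 4 did not pass. Together 14 of 41 rose, where 6.29% of all tested genes rose, and 3 of 41 fell, where 4.46% of all tested genes fell. Both knockout pools lay above both control pools for 22 of the 41 genes (26.4% of all tested genes) and below them for 7 (29.9% of all tested genes). The median log2 difference was 0.28 over the tested immediate early genes and -0.17 over the heat shock genes, against -0.022 over all tested genes. Increases that passed ran from 1.17-fold to 1.99-fold. The counts depended on the variance model and on single pools. The limma fits with median centring and of the values as deposited took the variance as known. With no mean-variance trend, 1 gene rose (Gadd45a) and 0 fell, where 1.2% of all tested genes rose and 0.376% fell. With median centring 10 rose and 0 fell, where 4.01% and 2.29% of all tested genes did. In each of these limma fits 4 genes were lower at an unadjusted p under 0.05. In the values as deposited 22 rose and 4 fell, where 8.48% and 4.26% of all tested genes did. The counts also changed when 1 array was left out, which leaves 1 pool in a group. Values after ± are SEs from the limma fit (n = 2 pools in each group), and folds refer to log2(signal + 16).

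**Figure D2:**
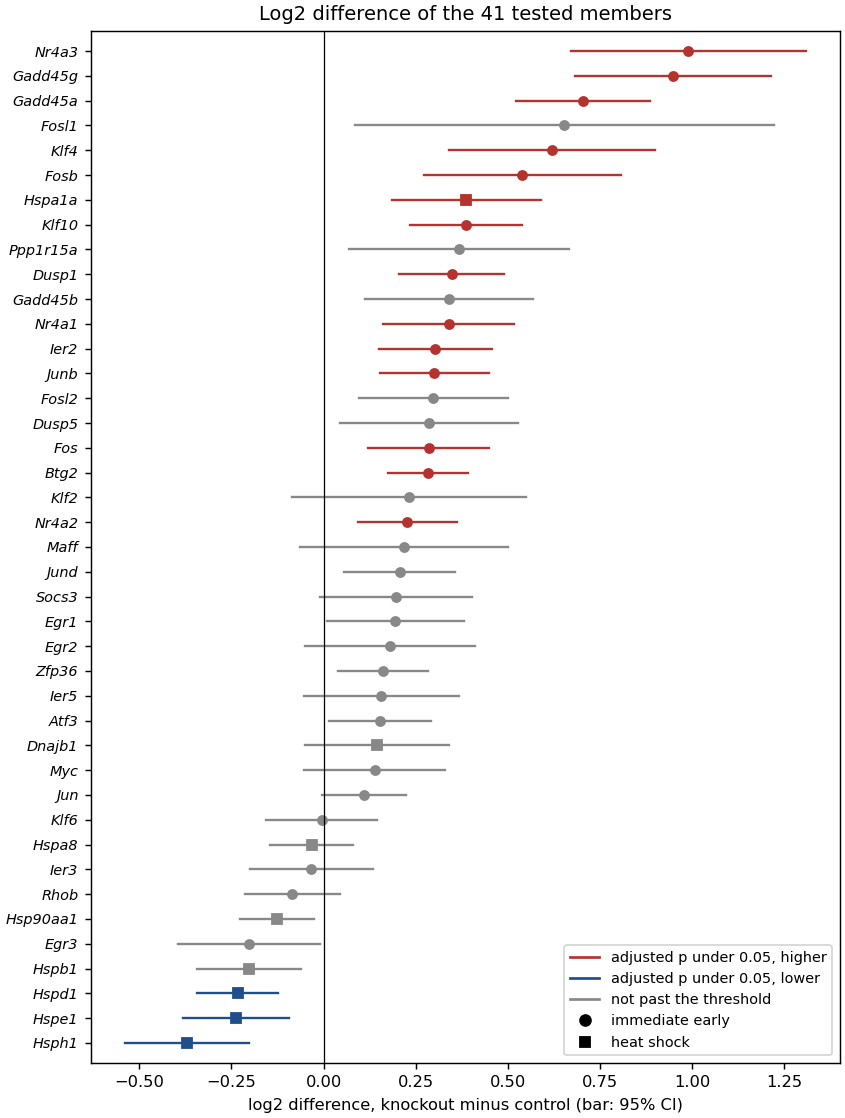
Log2 difference, knockout minus control, of the 41 tested genes with its 95% CI from the limma fit (2 pools per group). Red and blue mark genes past an adjusted p of 0.05, circles are immediate early and squares heat shock genes. The values run from -0.37 for Hsph1 to 0.99 for Nr4a3, and the 3 blue points are all heat shock genes.

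The AP-1 group held 9 tested genes, of which 3 rose and 6 did not pass, and all 9 had a log2 difference above 0 (44.3% of all tested genes did). Fosb, a Fos family subunit of AP-1, rose most of those that passed. Its log2 signal was 12.17 and 12.44 in the control pools and 12.64 and 13.05 in the knockout pools, and it rose 1.45-fold (log2 difference 0.54 ± 0.12, adjusted p = 0.0204). Knockout replicate 2 was the highest pool, by 0.40 over knockout replicate 1, and the groups did not overlap. Without that pool the difference was 0.34. For Fos, the founding subunit, the log2 signal was 12.24 and 12.41 in the control pools and 12.52 and 12.70 in the knockout pools, and it rose 1.22-fold (log2 difference 0.29 ± 0.073, adjusted p = 0.0361). Junb, a Jun family subunit, read 11.03 and 11.20 in the control pools and 11.39 and 11.44 in the knockout pools and rose 1.23-fold (log2 difference 0.30 ± 0.066, adjusted p = 0.0197), with less distance between the knockout pools than between the control pools. The Fos promoter printed above holds 2 TGACG cores, at positions -129 and -66, and those of Fosb and Junb hold 1 each.

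Fosl1, a Fos relative linked to cell motility, had a log2 signal of 8.72 and 9.10 in the control pools and 9.08 and 10.05 in the knockout pools. Its size rested on knockout replicate 2, and the other knockout pool lay within the control range. The log2 difference was 0.65 ± 0.25 (adjusted p = 0.137), 0.17 when knockout replicate 2 was left out. Leaving out knockout replicate 1 instead gave 1.14, a fit with 1 knockout pool that took the variance as known and is not read as a call. Fosl2 differed by 0.30 ± 0.090 (adjusted p = 0.0655), with groups that did not overlap. Jun, with signals of 7858, 7884, 8364 and 8812 units in control replicates 1 and 2 and knockout replicates 1 and 2, differed by 0.11 ± 0.051 (95% CI -0.0046 to 0.22). Jund differed by 0.21 ± 0.067 and the stress-responsive ATF family gene Atf3 by 0.15 ± 0.062, both without overlap and neither past the threshold. Maff, a small Maf protein without a transactivation domain, differed by 0.22 ± 0.13, and its groups overlapped. Without control replicate 1, Fos (0.20, adjusted p = 0.158), Fosb (0.41, adjusted p = 0.0641) and Junb (0.22, adjusted p = 0.119) no longer passed, nor did Fos without knockout replicate 2 (0.19, adjusted p = 0.0572). With a robust prior Fos and Fosb did not pass, nor did Junb with median centring.

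**Figure D3:**
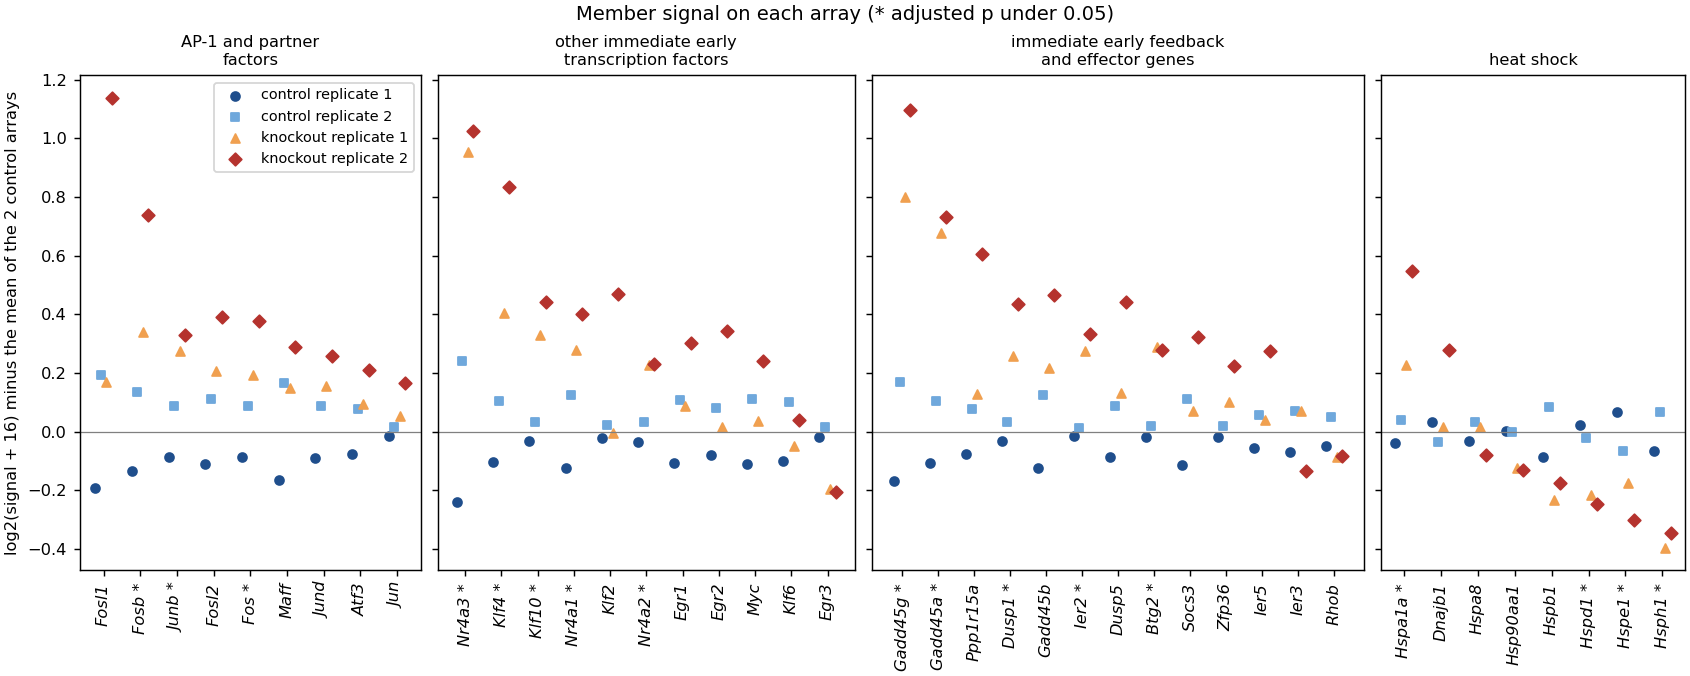
Signal of each tested gene on each of the 4 arrays, as log2(signal + 16) minus the mean of the 2 control arrays, in 4 panels by role; an asterisk marks an adjusted p under 0.05. In the 3 immediate early panels knockout replicate 2 (dark red) is the highest array for 28 of 33 genes (3015 of all 11963 tested genes), and in the heat shock panel both knockout arrays lie below both control arrays for 5 of 8 genes (29.9% of all tested genes).

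Of the other 11 immediate early transcription factors, 5 rose and 6 did not pass. The 3 genes of the NR4A family, which encode nuclear receptors that act without a known natural ligand, all rose. Nr4a3 had the largest log2 difference of the 41 tested genes. Its log2 signal was 8.43 and 8.91 in the control pools and 9.63 and 9.70 in the knockout pools, a 1.99-fold rise (log2 difference 0.99 ± 0.14, adjusted p = 0.00298). The knockout pools lay within 0.070 of each other and well clear of the controls. The signals as deposited were 326, 459, 805 and 804 units in control replicates 1 and 2 and knockout replicates 1 and 2. Nr4a1 read 11.77 and 12.02 in the control pools and 12.17 and 12.30 in the knockout pools and rose 1.27-fold (log2 difference 0.34 ± 0.079, adjusted p = 0.0249). Nr4a2 read 10.41 and 10.48 in the control pools and 10.67 and 10.68 in the knockout pools, and it rose 1.17-fold (adjusted p = 0.0413), the smallest rise among those called. Each NR4A promoter window held 4 TGACG cores, as in the Nr4a3 sequence above.

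Among the Krüppel-like zinc finger factors, Klf4 and Klf10 rose. Klf4, a regulator of epithelial differentiation and pluripotency, had a log2 signal of 10.05 and 10.26 in the control pools and 10.56 and 10.99 in the knockout pools and rose 1.54-fold (log2 difference 0.62 ± 0.12, adjusted p = 0.0135). Its knockout pools were 0.43 apart, with both above the controls, and without knockout replicate 2 the difference was 0.41. Klf10, an early TGF-beta response gene, read 10.15 and 10.22 in the control pools and 10.52 and 10.63 in the knockout pools and rose 1.31-fold (log2 difference 0.39 ± 0.068, adjusted p = 0.00798), with close replicates in both groups. Klf2 differed by 0.23 ± 0.14, a value that came from knockout replicate 2 and was -0.0055 without it. Klf6 differed by -0.0054 ± 0.067 (95% CI -0.16 to 0.14), and its sign turned in the values as deposited (0.019).

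The EGR zinc finger factors did not pass. For Egr1, one of the most used markers of recent ERK signalling, the log2 signal was 12.15 and 12.36 in the control pools and 12.34 and 12.55 in the knockout pools, and the difference was 0.19 ± 0.083 (adjusted p = 0.174). Knockout replicate 1 lay just below control replicate 2, so the groups overlapped. Egr2 differed by 0.18 ± 0.10. Egr3 differed by -0.20 ± 0.086 in the opposite direction, with both knockout pools below both control pools. Myc, a driver of growth and proliferation, differed by 0.14 ± 0.086 (95% CI -0.054 to 0.33). With a robust prior Nr4a1 and Klf4 did not pass, nor did Nr4a2 and Klf10 with median centring. Without control replicate 1, Nr4a1 (0.21, adjusted p = 0.0964) and Nr4a2 (0.19, adjusted p = 0.26) were not past the threshold, nor Nr4a2 without control replicate 2 (adjusted p = 0.0672) or knockout replicate 2 (adjusted p = 0.0628). When the deposited values were not normalized further, Egr1 passed (0.21, adjusted p = 0.00276) in a limma fit that took the variance as known. Its difference was 0.30 when control replicate 2 was left out. Without knockout replicate 1 the differences of Egr1 (0.30), Egr2 (0.34), Klf2 (0.47) and Myc (0.24) were larger, in the fit that is not read as a call.

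Feedback and effector genes included 5 that rose and 8 that did not pass, of 13 tested. The GADD45 genes encode small stress sensors that bind kinases and cell cycle proteins and restrain growth. Gadd45g read 9.79 and 10.12 in the control pools and 10.76 and 11.05 in the knockout pools and rose 1.93-fold (log2 difference 0.95 ± 0.12, adjusted p = 0.0016). Gadd45a, a p53 target, read 9.75 and 9.96 in the control pools and 10.53 and 10.59 in the knockout pools and rose 1.63-fold (log2 difference 0.70 ± 0.081, adjusted p = 0.00116). The distance between groups exceeded the distance within them for both genes. The log2 difference of Gadd45a ran from 0.60 to 0.81 over the 15 alternatives run. It alone of the members passed with no mean-variance trend (limma, adjusted p under 0.05). Gadd45b differed by 0.34 ± 0.10 (adjusted p = 0.0644) without overlap.

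Dusp1, a nuclear phosphatase that switches off MAP kinases, read 11.95 and 12.02 in the control pools and 12.25 and 12.42 in the knockout pools and rose 1.27-fold (log2 difference 0.35 ± 0.063, adjusted p = 0.00913). Its promoter printed above holds the full TGACGTCA at -143 to -136. Btg2, an antiproliferative p53 target whose window also holds TGACGTCA, read 11.72 and 11.76 in the control pools and 12.03 and 12.02 in the knockout pools and rose 1.22-fold (adjusted p = 0.00689). Its pools differed little within either group. Ier2, a nuclear protein of unclear biochemical role, read 9.85 and 9.88 in the control pools and 10.14 and 10.20 in the knockout pools and rose 1.23-fold (adjusted p = 0.0218).

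The remaining feedback genes moved less or less evenly. Ppp1r15a, which guides a phosphatase to the translation factor eIF2-alpha, read 9.74 and 9.89 in the control pools and 9.94 and 10.42 in the knockout pools. The value of knockout replicate 2 stood apart, and the log2 difference was 0.37 ± 0.13 (adjusted p = 0.113) and 0.13 without that pool. Another MAP kinase phosphatase gene, Dusp5, differed by 0.29 ± 0.11, and Zfp36, which promotes decay of AU-rich mRNAs, by 0.16 ± 0.054. Socs3, an inhibitor of JAK-STAT signalling, differed by 0.20 ± 0.091, Ier5 by 0.16 ± 0.094, Ier3 by -0.033 ± 0.075 and the small GTPase gene Rhob by -0.084 ± 0.057. None of these passed. Dusp2, below the filter, had signals of 197, 197, 185 and 231 units in control replicates 1 and 2 and knockout replicates 1 and 2, with no test. Without control replicate 1 Ier2 did not pass (0.29, adjusted p = 0.135), nor without control replicate 2 (0.32, adjusted p = 0.0609). Btg2 and Ier2 did not pass with median centring.

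Heat shock genes did not move as a block. Hspa1a, the stress-inducible member of its chaperone family, was the only 1 of the 8 that rose. It read 11.20 and 11.28 in the control pools and 11.47 and 11.79 in the knockout pools and rose 1.31-fold (log2 difference 0.39 ± 0.090, adjusted p = 0.0251). Knockout replicate 2 was 0.32 above knockout replicate 1, and both were above the controls. Without knockout replicate 2 the difference was 0.23. The probe set shared by Hspa1a and Hspa1b, neighbouring genes with near-identical coding sequence, read 11.85 and 11.95 in control pools, 12.03 and 12.36 in knockout pools, a log2 difference of 0.30 with no test. Signal from the pair cannot be assigned to either gene with certainty. Dnajb1, a co-chaperone of that family, differed by 0.15 ± 0.087, a value that came from knockout replicate 2 (0.014 without it).

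Hsph1, Hspd1 and Hspe1 fell. Hsph1, a nucleotide exchange factor for the same chaperone family, read 10.08 and 10.21 in the control pools and 9.75 and 9.80 in the knockout pools and fell 1.29-fold (log2 difference -0.37 ± 0.075, adjusted p = 0.014). Hspd1 encodes the mitochondrial chaperonin and Hspe1 its lid. Hspd1 had signals of 4199, 4093, 3612 and 3465 units in control replicates 1 and 2 and knockout replicates 1 and 2 (log2 difference -0.23 ± 0.049, adjusted p = 0.0172). Hspe1 read 11.80 and 11.67 in the control pools and 11.56 and 11.43 in the knockout pools (log2 difference -0.24 ± 0.065, adjusted p = 0.0445). For each of these 3 genes both knockout pools lay below both control pools. Hspd1 and Hspe1 are divergent neighbours, with 216 bases between the Hspe1 start and the Hspd1 start whose window holds the heat shock elements, so both windows share the elements printed above and are not independent. Among members with a window, the 3 genes called lower were those whose windows held the element as spelled. Looser spellings were not searched, and a link between the element and the calls was not tested. A further probe set of Hspd1 differed by -0.24 and one of Hspe1 by -0.22, on the log2 scale and with no test.

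Hspa8, Hsp90aa1 and Hspb1 did not pass the threshold. Hspa8, the constitutive counterpart of Hspa1a, read 13.44 and 13.51 in the control pools and 13.49 and 13.40 in the knockout pools (log2 difference -0.032 ± 0.050, 95% CI -0.15 to 0.081), and its other 2 probe sets differed by -0.0070 and 0.0013. Hsp90aa1, the inducible isoform of its family, differed by -0.13 ± 0.045 (adjusted p = 0.103), with -0.12 for each of the other 2 probe sets. The small heat shock protein gene Hspb1 differed by -0.20 ± 0.063 (adjusted p = 0.0709), and by -0.21 in its other probe set. Near-identical genomic copies of such genes can share probes, so these probe sets are not independent. Without control replicate 1, Hspa1a (0.35, adjusted p = 0.0835), Hspd1 (-0.21, adjusted p = 0.0866) and Hspe1 (-0.17, adjusted p = 0.257) were not past the threshold, nor Hsph1 without control replicate 2 (-0.31, adjusted p = 0.0879) or Hspe1 without knockout replicate 2 (-0.17, adjusted p = 0.126). All 3 decreases missed the threshold with median centring, and Hspa1a with a robust prior.

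Genes related to the 43 by pathway were read from lists written from general knowledge. Of all tested genes, 6.29% were called higher and 4.46% lower in the same fit. Beside these shares, the few calls among upstream regulators, other chaperones and endoplasmic reticulum genes are not read as results about those lists. Of 44 other tested early response genes 9 rose and 1 fell, with a median log2 difference of 0.17. Gem, a small GTPase gene, rose 2.08-fold (log2 difference 1.06 ± 0.13, adjusted p = 0.00153), the signalling regulator gene Rgs2 1.61-fold and the CREB feedback kinase gene Sik1 1.57-fold. Klf5, the only gene of that list called lower, had a log2 difference of -0.22 ± 0.058. Upstream regulators such as serum response factor, its partners and the MAP kinases showed 1 rise in 17 tested, Mapk9, which encodes a JNK kinase (0.22 ± 0.053), and 0 fell, with a median of -0.0090 (1 was lower at an unadjusted p under 0.05). Of 32 other chaperones and heat shock factors 0 rose by limma (1 at an unadjusted p under 0.05) and 1 fell, Cacybp (-0.23 ± 0.060), and 22 had a difference below 0 (68.8%, against 55.7% of all tested genes). Of 21 chaperones and stress genes of the endoplasmic reticulum Dnajb9 rose (0.23 ± 0.063), and Sdf2l1 (-0.33 ± 0.066) and Pdia4 (-0.20 ± 0.049) fell.

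**Figure D4:**
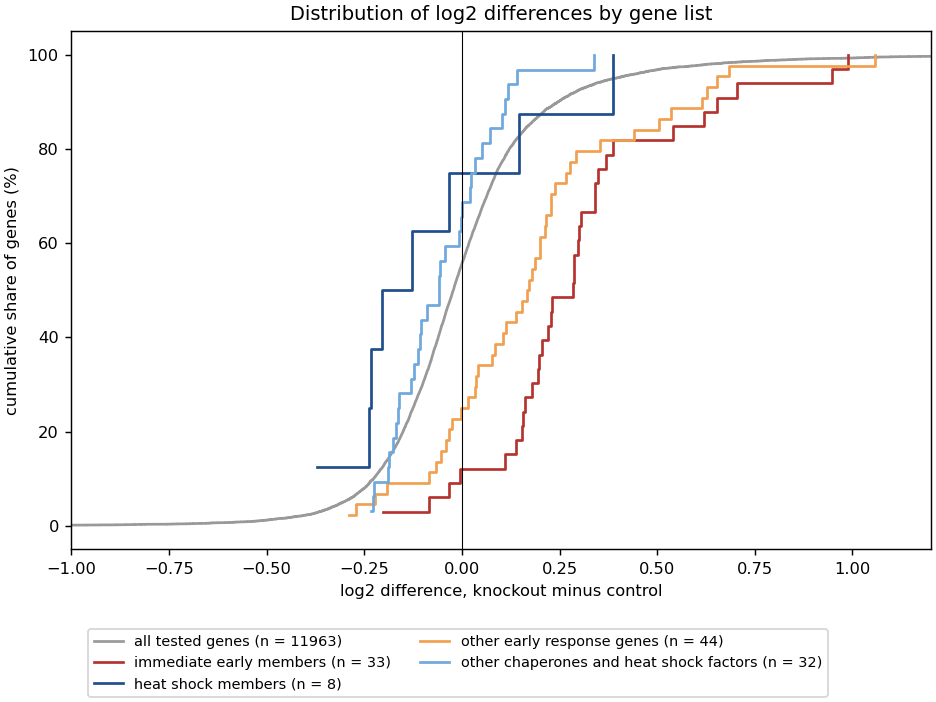
Cumulative share of genes (%) against the log2 difference, knockout minus control, for immediate early genes, heat shock genes, 2 lists of related genes and all 11963 tested genes. At the median, the immediate early curve (0.28) lies to the right of the curve for all genes (-0.022). The heat shock curve lies to the left of the curve for all genes there, at -0.17.

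The immediate early genes also differed between pools of the same genotype. Control replicate 1 was the lowest and knockout replicate 2 the highest pool for 28 of 33 immediate early genes, whereas 17.2% of all tested genes showed this. Relative to each gene's mean over the 4 arrays, the immediate early genes had a median log2 deviation of -0.21 in control replicate 1, -0.056 in control replicate 2, 0.047 in knockout replicate 1 and 0.22 in knockout replicate 2. Within the controls, replicate 2 lay above replicate 1 for 33 of 33 immediate early genes (60.1% of all tested genes). Within the knockouts, replicate 2 lay above replicate 1 for 30 of 33 (44.0%). The median of replicate 2 minus replicate 1, with signs kept, was 0.17 in the controls and 0.14 in the knockouts. The median group difference was 0.28. Heat shock genes had deviations of 0.041 and 0.058 in control replicates 1 and 2, and of -0.060 and -0.070 in knockout replicates 1 and 2.

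Markers of some other cell types in the same RNA moved with the groups, and those of others did not. Of all tested genes, 6.29% were called higher and 4.46% lower. All 9 fibroblast markers tested, among them Pdgfra, Lum and Col1a1, rose (median log2 difference 1.07), and the summed signal of the list, as deposited, was 10664 and 11188 units for the control pools against 23865 and 28244 for the knockout pools. Of 8 endothelial markers 5 rose (median 0.63), with sums of 3124 and 3874 against 5221 and 6493, and 8 of 8 had control replicate 1 lowest and knockout replicate 2 highest. That is the order seen for most immediate early genes. It also held for 7 of the 9 fibroblast and 2 of the 3 adipocyte markers tested (17.2% of all tested genes). Adipocyte sums over the 7 on the array were 2324 and 2405 against 3179 and 3543. Of 3 tested, Lpl and Fabp4 rose and Plin1 did not pass (log2 difference -0.084 ± 0.15, groups overlapping). Adipoq, Lep, Retn and Cidec were below the filter, and the median log2 difference of the 7 was 0.11. Of 6 macrophage markers tested Cd14 rose and Lyz2 fell, and the sums over all 8 on the array were 4663 and 5215 against 5625 and 4173. Of 4 lymphocyte markers tested Cd79b and Ccr7 fell. Ms4a1, Cd79a and Cxcr5 were below the filter, with log2 differences of -2.05, -1.78 and -1.01 and no test, and the sums over all 7 on the array were 2494 and 1994 against 1066 and 1061. Skeletal muscle and epidermal markers had 0 called by limma of 4 tested in each list (0 and 0 at an unadjusted p under 0.05), and the erythroid marker on the array, Alas2, was below the filter. Epithelial sums were 48862 and 50114 against 50692 and 52111, with Acta2 higher and Trp63 lower among 8. The part of these shifts in the immediate early and heat shock values was not tested, and in such bulk RNA fewer cells of a type and less RNA per cell cannot be told apart.

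**Figure D5:**
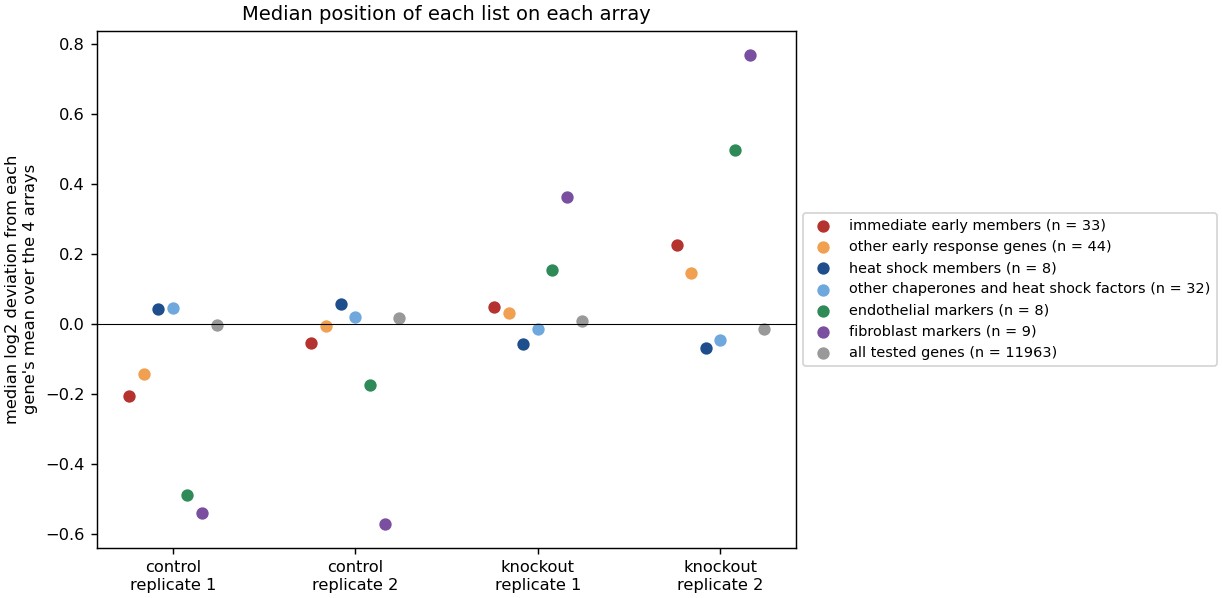
Median log2 deviation of each gene list from its genes' means over the 4 arrays, for each array; each point is 1 list on 1 array. Immediate early genes (red) lie at -0.21 in control replicate 1 and 0.22 in knockout replicate 2. Endothelial markers (green) and other early response genes (orange) take the same order of arrays. Fibroblast markers (purple) are also highest in knockout replicate 2, and all tested genes (grey) stay close to 0.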

How the data were processed

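Signals of 4 Affymetrix whole-transcript arrays were used as deposited: 1 linear signal intensity per probe set, for 35556 probe sets. Per the submitters' processing notes, the authors used Affymetrix Expression Console 1.1.1 and PLIER 2.0. Their normalization, background correction and genome build were not stated there. Of the probe sets, 21789 carried 1 gene symbol in the platform annotation, 1621 several and 12146 none. Values were taken as log2(signal + 16) and quantile normalized over all probe sets. Genes with a mean below the 40th percentile (log2 value 7.97) were not tested, which left 11963. Groups were compared with limma 3.58.1 in R 4.3.3 (lmFit and eBayes, trend option on, two-sided tests) with Benjamini-Hochberg adjustment and a threshold of 0.05. Residual degrees of freedom were 2 and prior ones 7.57, and the code was tested on simulated data. The small number of arrays limits the precision. No detection call was used, so dim signals may be background.

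The members and lists were chosen with earlier results of these data known. All 43 members were named, with up to 3 called genes per direction, by size of difference, from each related list, and Ovol2, Krt14 and defining markers as checks. Alternatives covered the normalization, offset, filter, variance prior, probe set, replicate block and leaving out each array.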

Additional observations from a re-analysis of the deposited data

How the results depend on the processing

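Over 15 alternatives, 522 values of single members kept their direction and did not cross the threshold. A further 51 no longer passed, 47 newly passed and 10 changed sign. The 522 include values without a test, such as those of Dusp2, which had no side of the threshold to keep. The 17 called members kept their sign in every alternative, and with no mean-variance trend only Gadd45a passed (limma, adjusted p under 0.05). Their log2 differences varied, from 0.75 to 1.23 for Nr4a3 and from -0.44 to -0.31 for Hsph1. Fits without 1 array have 1 pool in a group, so passing the threshold in them is not counted as support. The median log2 difference of the immediate early members on the array, 0.26, lay between 0.15 and 0.33, and that of the heat shock members, -0.17, between -0.20 and -0.12.

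The 14 members called higher became 22 in the values as deposited and 1 with no mean-variance trend, and 7 to 29 without 1 array. Members called lower, 3, became 0 with median centring and 0 with no trend (limma, 4 at an unadjusted p under 0.05 in each). All genes called, 1285, became 754 with median centring, 189 with no trend, and 475 to 2351 without 1 array. The replicate numbers do not pair the arrays by any label, and deviations of same-numbered arrays correlated at -0.20 over all tested genes (0.42 over the members). With a replicate block, 24 members were called higher, 4 lower and 2244 genes in all. A crossed replicate block, added after seeing the data, called 12 members higher, 2 lower and 1186 genes. The values as deposited, median centring, the replicate block and the fits without 1 knockout array had infinite prior degrees of freedom. What caused these changes was not tested.

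Changes of sign were in members that were not called. Klf6 was 0.019 in the values as deposited. Without 1 array, Klf6 ranged from -0.11 to 0.095, Ier3 from -0.13 to 0.069, Hspa8 from -0.080 to 0.016, Klf2 from -0.0055 to 0.47 and Dusp2, untested, from -0.066 to 0.16.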
